A study of Mus musculus with 18 samples.

Results

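The subunits of RNA polymerase II, the general transcription factors, the TBP-associated factors and Mediator were followed through mouse 2-cell embryos. The embryos were given a control siRNA, an siRNA named for Echs1, DMSO, sodium acetate or sodium crotonate, and crotonylation itself is not among the values used here. Members were chosen by gene symbol, and 79 of the 55335 genes listed for each library qualified. By complex they comprised 12 subunits of the polymerase and its associated factor Polr2m, 13 subunits of TFIIA, TFIIB, TFIIE, TFIIF and TFIIH, 16 of TFIID and 30 of Mediator. Modules of Mediator follow a fixed assignment that places Med19 in the head, and all counts and medians for the head rest on it. The symbol rule also took in Taf1a, Taf1b, Taf1c and Taf1d, which belong to the RNA polymerase I factor SL1, Taf5l and Taf6l, which belong to the coactivator SAGA, and the RNA-binding protein Taf15. All 79 are protein-coding genes.

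Smart-seq2 libraries, made from oligo-dT primed cDNA of 5 to 10 pooled embryos, were sequenced for 18 tubes in 2 experiments. The siRNA experiment held 12 libraries: a control siRNA (siCon) or an siRNA named for Echs1 (siEchs1), each at the early (E2C) and late (L2C) 2-cell stage, with 3 libraries in each of the 4 groups. Echs1 encodes a mitochondrial enoyl-CoA hydratase that consumes crotonyl-CoA. The treatment experiment held 6 libraries of wild-type embryos treated as zygotes and collected at E2C, 2 each with DMSO, sodium acetate or sodium crotonate. The labels give no dose, strain or embryo origin, and do not say whether the tubes of a group came from separate matings, so p-values measure the spread between these tubes, which may be technical.

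RNA polymerase II transcribes protein-coding genes. TFIID and TFIIA mark the promoter, TFIIB and TFIIF bring the polymerase in, TFIIE and TFIIH open the DNA, and Mediator, through its head and middle modules, carries signals from activators to the polymerase. Its tail module faces the activators, and its kinase module, with Cdk8, detaches it from the polymerase. The mouse embryo inherits an oocyte's RNA, is nearly silent after fertilisation and switches on its own genome in a minor wave and then, at the late 2-cell stage, a major wave, so its transcription machinery is at first built from maternal messages. Gtf2a1l, Taf4b and Taf7l are germ-cell paralogs of Gtf2a1, Taf4 and Taf7.

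Expression values are FPKM, which scales fragments by transcript length and library size, and changes are log2 differences of FPKM + 1. Echs1 stood between 24.4 and 39.2 FPKM in the 6 siCon libraries and between 0.71 and 5.88 FPKM in the 6 siEchs1 libraries. Totals of the deposited FPKM ranged from 708113 to 1123990 per library, and the read depth is unknown. Between 73 and 79 members reached 1 FPKM in a library, and together they made up 0.678% to 1.71% of the total. The library siEchs1 E2C replicate 3 stood apart: across the 79 members its Spearman correlation with replicates 1 and 2 was 0.71 and 0.69, whereas those 2 correlated at 0.97. A list of 8 oocyte transcripts (Zp1, Zp2, Zp3, Mos, Gdf9, Bmp15, Figla and Zar1) summed to 9127 and 13243 FPKM in its sister libraries and to 1435 FPKM in it. The same sum was 1065 to 1358 FPKM in siCon E2C, 592 to 828 FPKM in siCon L2C and 11542 to 17026 FPKM in siEchs1 L2C, so 5 of the 6 siEchs1 libraries carried far more oocyte transcript than any control. Mitochondrially encoded RNA made up 13.1% to 17.0% of FPKM in siCon E2C, 2.82%, 1.69% and, in replicate 3, 10.3% in siEchs1 E2C, 7.58% to 11.2% in siCon L2C and 0.831% to 2.27% in siEchs1 L2C. Transcripts of the 2-cell stage (7 genes, among them Zscan4c, Zscan4d and Zfp352) summed to 1018 to 1246 FPKM in siCon E2C, 237 to 409 FPKM in siEchs1 E2C, 1090 to 1593 FPKM in siCon L2C and 69.1 to 175.2 FPKM in siEchs1 L2C. For the treatment libraries, also at E2C, this 2-cell sum ranged from 101 to 202 FPKM with DMSO. It was 167 to 224 FPKM with acetate and 232 to 233 FPKM with crotonate. Each treatment library lay below every siEchs1 E2C library, so a sum far under siCon E2C was not particular to siEchs1. Why siCon E2C and DMSO differed in it was not tested. Markers of other cells were low against the oocyte and 2-cell sums but not level between groups. The 6 blood genes summed to 59.7 to 77.8 FPKM in siCon E2C and 90.5 to 124.9 FPKM in siCon L2C, mostly from Hba-a1 and Hba-a2, and to 2.74 to 18.7 FPKM in siEchs1. The 5 oviduct genes summed to 128 to 188 FPKM in siCon L2C, mostly from Epcam, and to 1.95 to 36.9 FPKM elsewhere. They did not move together from E2C to L2C in siCon. Epcam and Krt18 rose by 2.65 and 2.59 (limma adjusted p = 0.0067 and 0.036). Krt8 and Ovgp1 had differences of 1.04 and 0.13 that did not pass (adjusted p = 0.18 and 0.75), and Foxj1 was below the filter. The 7 cumulus genes summed to 0.98 to 9.58 FPKM and the 6 sperm genes to 5.3 to 72.2 FPKM, mostly from Prm2. The part of these differences in the results on the machinery was not tested.

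Promoters of the large TFIIA subunits and of 4 Mediator head subunits are shown first. RefSeq promoter entries (GRCm38.p6, mm10) matched 68 of the 79 members with 83 promoters, and the 250 bases before each start were searched on both strands for 7 motifs: TATAAA, the TATA box; the CCAAT box; GGGCGG, the GC box; CCGGAAG, an ETS motif; CACGTG, an E box; AAGATGGCG, a YY1 motif; and the NRF1 palindrome. Gtf2a1 and Gtf2a1l are shown because their messages moved in opposite directions, and Med17, Med18, Med19 and Med22 because they are head subunits that rose in siEchs1 L2C. Med8, a head subunit that also rose, had no promoter entry. Sequences run 5′ to 3′, and capitals mark matches to these motifs on either strand.
Gtf2a1, chr12:91590488-91590737, minus strand: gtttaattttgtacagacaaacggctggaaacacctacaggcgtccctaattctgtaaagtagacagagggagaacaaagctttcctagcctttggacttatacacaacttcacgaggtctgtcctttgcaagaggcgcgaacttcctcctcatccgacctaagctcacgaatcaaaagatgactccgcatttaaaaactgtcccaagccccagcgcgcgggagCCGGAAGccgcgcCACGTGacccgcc
Gtf2a1l, chr17:88668410-88668659, plus strand: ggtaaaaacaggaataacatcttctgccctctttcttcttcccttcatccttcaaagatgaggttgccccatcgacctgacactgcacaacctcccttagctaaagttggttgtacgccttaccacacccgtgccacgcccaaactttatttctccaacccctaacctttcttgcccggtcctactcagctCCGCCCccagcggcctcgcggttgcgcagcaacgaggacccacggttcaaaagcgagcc
Med17, chr9:15279907-15280156, minus strand: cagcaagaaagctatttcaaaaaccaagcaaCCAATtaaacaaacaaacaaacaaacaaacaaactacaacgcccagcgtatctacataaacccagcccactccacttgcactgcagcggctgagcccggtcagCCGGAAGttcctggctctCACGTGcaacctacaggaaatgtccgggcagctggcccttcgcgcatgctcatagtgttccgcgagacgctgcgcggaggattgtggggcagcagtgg
Med18, chr4:132463922-132464171, minus strand: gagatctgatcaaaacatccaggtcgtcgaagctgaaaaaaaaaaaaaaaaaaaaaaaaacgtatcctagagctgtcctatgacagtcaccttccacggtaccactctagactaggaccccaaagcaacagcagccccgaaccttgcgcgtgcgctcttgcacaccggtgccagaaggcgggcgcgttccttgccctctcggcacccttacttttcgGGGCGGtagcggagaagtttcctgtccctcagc
Med19, chr2:84678152-84678401, plus strand: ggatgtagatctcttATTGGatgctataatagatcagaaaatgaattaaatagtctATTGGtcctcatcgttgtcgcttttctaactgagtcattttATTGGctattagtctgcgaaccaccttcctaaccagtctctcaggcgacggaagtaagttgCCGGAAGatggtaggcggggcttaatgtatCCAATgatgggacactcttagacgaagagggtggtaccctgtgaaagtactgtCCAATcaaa
Med22, chr2:26910643-26910892, minus strand: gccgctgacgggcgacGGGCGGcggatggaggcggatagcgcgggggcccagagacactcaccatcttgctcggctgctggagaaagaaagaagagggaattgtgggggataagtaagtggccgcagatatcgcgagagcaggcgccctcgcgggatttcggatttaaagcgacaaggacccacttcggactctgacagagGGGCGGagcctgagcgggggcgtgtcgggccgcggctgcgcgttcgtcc
The windows shared little. CCGGAAG lay in those of Gtf2a1, Med17 and Med19, and CACGTG in those of Gtf2a1 and Med17, while Gtf2a1l, Med18 and Med22 held only GGGCGG. None of these 6 windows held TATAAA. Gtf2a1 has another listed start, whose window held none of the motifs and is not shown. Over all members, CCGGAAG occurred in 22.9% of promoters, against 6.91% of the 32851 promoters listed, GGGCGG in 59.0% against 32.7%, CACGTG in 13.3% against 6.02%, CCAAT in 33.7% against 33.8% and TATAAA in 14.5% against 12.4%. AAGATGGCG occurred in 1.2% of member promoters (0.606% of all) and the NRF1 palindrome in 0 of the 83 (0.782% of all). CCGGAAG lay in 2 of the 10 promoters of members that rose in siEchs1 L2C, in 4 of 17 of those that fell and in 13 of 56 of the rest. Members without an entry, Med8 among them, are left out. These counts are matches of letters, not bound sites.

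Message levels of the polymerase subunits were far from equal, although the enzyme holds each once. In siCon E2C, on the per-length FPKM scale, Polr2a, the catalytic subunit that carries the C-terminal repeat domain, had the lowest mean of the 12 at 1.41 FPKM, with 2.25, 1.01 and 0.96 FPKM in the 3 libraries. Polr2j, part of the assembly platform, had the highest mean at 1762 FPKM. Polr2a was the lowest subunit by mean in all 7 groups, and the highest was Polr2j in the 4 siRNA groups and its partner Polr2c in the 3 treatment groups. Across the 79 members the Spearman correlation of exon length with mean FPKM lay between -0.45 (siEchs1 E2C) and -0.05 (crotonate), a description with genes sharing libraries. In Mediator the highest mean in siCon E2C was that of the tail subunit Med27 at 2650 FPKM and the lowest that of the tail subunit Med16 at 0.353 FPKM.

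At the late stage, the siRNA comparison asks how the machinery differed once the major wave is due. In siEchs1 L2C 5 of the 8 Mediator head subunits, TFIIB and the germ-cell TFIIA subunit Gtf2a1l stood above siCon L2C, whereas Gtf2a1, the TFIID subunit Taf4b, the Mediator scaffold Med14 and Taf1d of SL1 stood below it. Of the 79 members, 13 rose and 18 fell, beside 48.8% of the 17652 genes tested (21.9% rose and 26.9% fell). Both the member counts and the shares of all genes were higher without siEchs1 E2C replicate 3, as given below. The median log2 change was -0.21 for the members and -0.08 for all genes tested. In bulk tubes, fewer cells of a kind and less RNA per cell cannot be told apart. Because the cDNA was oligo-dT primed, a change in message number and a change in poly(A) tail cannot be told apart either. Of the 31 called members, 23 were also called under each of the 21 other settings of the test. The others were Gtf2e2, Med29, Med31, Polr2a, Polr2g, Polr2h, Taf4 and Taf1, whose call ended without siCon L2C replicate 3 (-1.45, adjusted p = 0.053). Oocyte transcript was higher in each siEchs1 L2C library than in each siCon L2C library. The sums of the 2-cell and blood genes, Epcam of the oviduct list and mitochondrial RNA were lower in each siEchs1 L2C library.

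TFIIA steadies TBP on the DNA. The messages of its alternative large subunits, Gtf2a1 (chr12:91555262-91590487, minus strand) and Gtf2a1l (chr17:88668660-88715152, plus strand), changed in opposite directions. Gtf2a1l stood at 3.22, 4.99 and 5.69 FPKM in siCon L2C and at 158, 207 and 209 FPKM in siEchs1 L2C. Gtf2a1 stood at 143, 101 and 128 FPKM in siCon L2C and at 12.6, 33.2 and 35.6 FPKM in siEchs1 L2C. The groups did not overlap for either gene, and every siEchs1 library lay on the far side of every control. Gtf2a1l rose by 5.11 ± 1.13 (log2 ± SE, n = 3 and 3, limma adjusted p = 0.0029), and Gtf2a1 changed by -2.27 ± 0.50 (adjusted p = 0.0027). The small subunit gene Gtf2a2 had a difference of -0.54 ± 0.34, which did not pass the test (adjusted p = 0.21). Outside the symbol rule, Tbpl2, the oocyte paralog of TBP that works with TFIIA in oocytes, rose by 2.54 (adjusted p = 0.0067), whereas Tbpl1 changed by -1.25 (adjusted p = 0.016), and Tbp differed by 0.87 without passing (adjusted p = 0.13).

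The Mediator head contacts the polymerase directly, and 5 of its 8 subunits rose in siEchs1 L2C while 0 fell. For Med17, the subunit around which the head is built, siCon L2C gave 14.1, 19.0 and 28.7 FPKM and siEchs1 L2C 220, 249 and 254 FPKM. Med8, which joins Med17 to the movable part of the head, stood at 19.9, 2.6 and 10.6 FPKM in siCon L2C and at 91.4, 79.0 and 66.3 FPKM in siEchs1 L2C. Neither gene's groups overlapped, as the rule for naming members (given with the processing) required, and the siEchs1 libraries lay close together. Med17 rose by 3.54 ± 0.76 (adjusted p = 0.0023) and Med8 by 3.05 ± 0.81 (adjusted p = 0.0083). Med18, in the movable jaw, rose by 2.57 ± 0.52 from 2.39 to 3.06 FPKM across siCon L2C to 19.7 to 24.1 FPKM (adjusted p = 0.0016). Med22 rose by 1.87 ± 0.46 and Med19 by 1.55 ± 0.31 (adjusted p = 0.0055 and 0.0014). The other head subunits, Med6, Med11 and Med20, had differences of 0.16, -0.25 and 0.93, and none of these 3 passed the test. The median over the head was 1.71, beside -0.08 for all genes tested.

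The rest of Mediator split. In the middle module, Med26, which helps to bring in elongation factors, rose by 1.29 ± 0.29 (adjusted p = 0.0032), from 22.4 to 28.4 FPKM in siCon L2C to 53.0 to 81.9 FPKM. Med31 in the same module changed by -1.29 ± 0.43 (adjusted p = 0.026), and 6 of the 8 middle subunits did not pass. Med14, the scaffold that ties head, middle and tail together, stood at 49.7, 59.0 and 78.1 FPKM in siCon L2C and at 13.5, 19.9 and 16.9 FPKM in siEchs1 L2C, without overlap. It changed by -1.83 ± 0.36 (adjusted p = 0.0013). In the tail 2 of 9 rose, Med30 (2.05 ± 0.43) and Med28 (1.52 ± 0.28), and 3 fell, Med29 (-1.97 ± 0.70), Med16 (-1.87 ± 0.32) and Med24 (-1.52 ± 0.34). In the kinase module Med13, which tethers the kinase to Mediator, changed by -1.60 ± 0.36 (adjusted p = 0.0032), and Med12, Med12l and Med13l did not pass. The kinase itself, Cdk8, changed by -2.34 (adjusted p = 0.00053), and its cyclin Ccnc had a difference of -0.69 (adjusted p = 0.39).

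Among TFIID, TFIIB, TFIIE, TFIIF and TFIIH 3 members rose and 7 fell. In TFIID 1 subunit of 16 rose and 4 fell. Taf9b rose by 1.87 ± 0.39 (adjusted p = 0.0018), from 10.7 to 28.4 FPKM in siCon L2C to 65.2 to 73.4 FPKM in siEchs1 L2C. Taf4b changed by -2.12 ± 0.29 (adjusted p = 0.00017), from 28.2 to 38.9 FPKM to 5.43 to 8.95 FPKM. Taf1, the largest subunit, changed by -1.75 ± 0.50, Taf4 by -1.66 ± 0.52 and Taf2, which reads promoter DNA, by -1.52 ± 0.39 (adjusted p = 0.012, 0.018 and 0.0064). Gtf2b, the single subunit of TFIIB, rose by 2.12 ± 0.51 from 59.1 to 109.5 FPKM in siCon L2C to 278 to 396 FPKM (adjusted p = 0.0046). The subunits of TFIIE parted, with Gtf2e1 at -2.11 ± 0.33 and Gtf2e2 at 1.08 ± 0.36 (adjusted p = 0.00031 and 0.027). Gtf2f1 of TFIIF changed by -1.31 ± 0.37 and Gtf2h1 of TFIIH by -1.13 ± 0.30 (adjusted p = 0.011 and 0.0084), and the other 4 TFIIH subunits did not pass.

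Among the polymerase subunits 1 of 12 rose and 3 fell in siEchs1 L2C. Polr2g, of the stalk, rose by 1.13 ± 0.41 (adjusted p = 0.038). Polr2h and Polr2f, both shared by the 3 nuclear polymerases, changed by -1.48 ± 0.51 and -1.34 ± 0.30 (adjusted p = 0.030 and 0.0029). Polr2a changed by -0.88 ± 0.34, from 4.13 to 7.97 FPKM to 2.11 to 3.71 FPKM, close to the threshold (adjusted p = 0.046), and 16 of the 21 other settings did not call it. Polr2b, the other large catalytic subunit, had a difference of -0.46 (adjusted p = 0.30). Taf1d, of the polymerase I factor SL1, changed by -2.55 ± 0.32, from 259 to 412 FPKM in siCon L2C to 46.5 to 82.0 FPKM (adjusted p = 0.00011). Without the library siEchs1 E2C replicate 3, which enters this comparison only through the shared estimate of spread, 22 members rose and 23 fell, beside 58.7% of all genes called (27.7% rose and 31% fell).

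**Figure D1:**
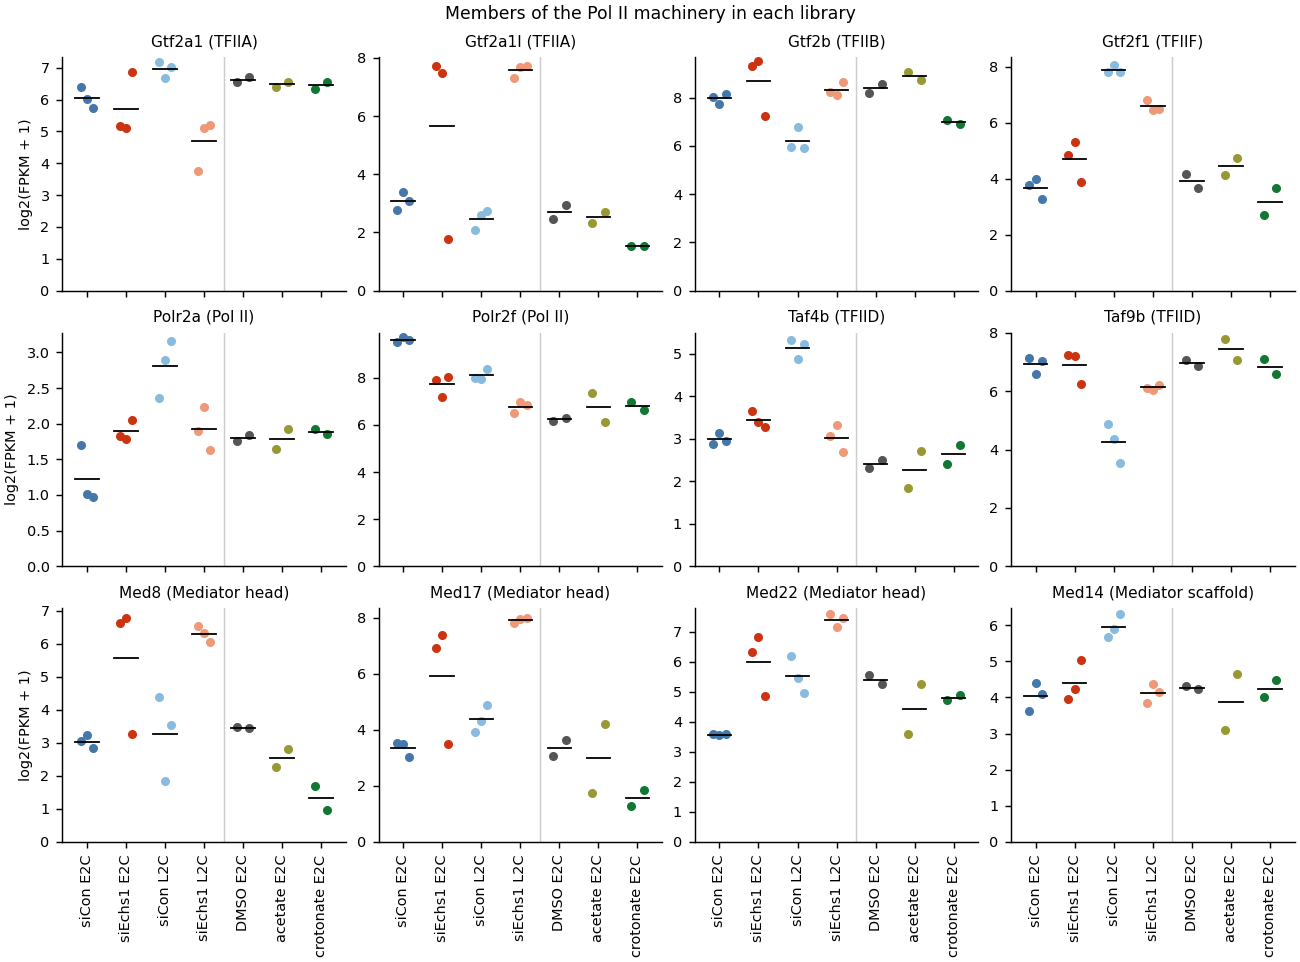
Levels of 12 members, as log2(FPKM + 1), in each of the 18 libraries by group. Points are libraries, black lines are group means, and the grey line separates the siRNA from the treatment experiment. The siEchs1 E2C replicate 3 point lies near the siCon E2C points for Gtf2a1l, Med8 and Med17, and the 3 siEchs1 L2C points lie above siCon L2C for these genes and below it for Med14 and Taf4b.

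At the early stage the comparison asks what differed before the major wave. The head subunits Med8, Med17, Med19 and Med22, Med26, Taf5l and Polr2m stood above siCon E2C, and Polr2f, Gtf2a2 and Taf1d below it. In siEchs1 E2C 8 members rose and 5 fell of 79, beside 20.3% of all genes tested (11% rose and 9.31% fell). With FPKM rescaled to the total without mitochondrial and ribosomal RNA the split was 14 and 4, beside 14.6% of all genes rising and 6.57% falling. With quantile normalization it was 8 and 3, beside 9.6% and 10.7%. The median log2 change was 0.37 for the members and 0.15 for all genes. Without siEchs1 E2C replicate 3 the count was 29 rising and 7 falling, beside 37.2% of all genes called (23.2% rose and 14% fell). All 8 members that rose, and 4 of the 5 that fell, were called in the same direction without it.

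In the Mediator head 4 of 8 subunits rose and 0 fell. Med17 was at 10.4, 10.3 and 7.24 FPKM in siCon E2C and at 119, 167 and, in replicate 3, 10.1 FPKM in siEchs1 E2C. Med8 was at 7.29, 8.37 and 6.18 FPKM and at 98.9, 109.2 and, in replicate 3, 8.75 FPKM. For Med22 siCon E2C gave 11.0, 10.7 and 11.0 FPKM and siEchs1 E2C 79.3, 111.8 and 28.0 FPKM. Replicates 1 and 2 lay far above the controls for these genes, while replicate 3 lay among them for Med17 and just above them for Med8. Med17 rose by 2.58 ± 0.76, Med8 by 2.53 ± 0.81, Med22 by 2.43 ± 0.46 and Med19 by 1.74 ± 0.31 (n = 3 and 3, limma adjusted p = 0.032, 0.045, 0.0041 and 0.0027). The calls of Med17 and Med8 ended when any siCon E2C library or siEchs1 E2C replicate 1 or 2 was left out (Med17 1.84 to 2.66, adjusted p = 0.072 to 0.13; Med8 1.92 to 2.62, adjusted p = 0.097 to 0.17). The call of Med8 also ended without siCon L2C replicate 3 or any siEchs1 L2C library, which enter through the shared spread (adjusted p = 0.057 to 0.061). Without replicate 3 the first 3 of these changes were 3.80, 3.67 and 3.00, and 7 of the 8 head subunits rose, with Med6 at 0.34 the exception. The median over the head was 1.81, and 2.50 without replicate 3, beside 0.15 and 0.13 for all genes.

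Outside the head, Polr2f stood at 726, 851 and 789 FPKM in siCon E2C and at 240, 147 and 264 FPKM in siEchs1 E2C. The groups did not overlap, as the naming rule required. Polr2f changed by -1.90 ± 0.30 (adjusted p = 0.0014). Gtf2a2 changed by -1.53 ± 0.34, Taf1d by -1.51 ± 0.32, Med27 by -1.08 ± 0.26 and Med21 by -1.19 ± 0.39 (adjusted p = 0.0093, 0.0065, 0.014 and 0.047), and Med21, of the middle module, was not called without replicate 3 (-0.92, adjusted p = 0.062). Taf5l of SAGA rose by 1.56 ± 0.33, Polr2m, an inhibitor of polymerase that Mediator counteracts, by 1.63 ± 0.35, Med26 by 1.58 ± 0.29 and Med4 by 1.53 ± 0.47 (adjusted p = 0.007, 0.0071, 0.0035 and 0.038). The groups of Med4 overlapped, and 10 of the 21 other settings did not call it. Its call ended without any siCon E2C library, siEchs1 E2C replicate 1 or 2 or any siEchs1 L2C library (1.15 to 1.69, adjusted p = 0.052 to 0.14). That of Med21 ended in 15 of the 21, without any siCon E2C library among them (adjusted p = 0.085 to 0.15). The call of Med27 ended when any siCon E2C library was left out (-1.06 to -1.11, adjusted p = 0.050 to 0.057) and under quantile normalization (-0.51, adjusted p = 0.25). In TFIID 0 of 16 subunits passed the limma test and 0 had an unadjusted p under 0.05, beside 34.6% of all genes at that unadjusted level. Without replicate 3, Taf8 rose and Taf10 and Taf5 fell.

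For Gtf2a1l replicate 3 lay below siCon E2C and its sister libraries far above it. Gtf2a1l stood at 5.87, 9.4 and 7.38 FPKM in siCon E2C, at 209 and 178 FPKM in siEchs1 E2C replicates 1 and 2 and at 2.44 FPKM in replicate 3, so that its difference of 2.59 ± 1.13 did not pass the test (adjusted p = 0.13). Without replicate 3 it rose by 4.53 ± 0.30 (adjusted p = 3.8e-07). Gtf2b was at 257, 210 and 286 FPKM in siCon E2C and at 626, 723 and, in replicate 3, 151 FPKM, a difference of 0.71 that did not pass with all libraries (adjusted p = 0.35) and was 1.43 without replicate 3 (adjusted p = 0.0027). Polr2d and Polr2k, also at E2C, had differences of 1.15 and 0.49 that did not pass with all libraries, and rose by 2.36 and 2.32 without replicate 3.

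**Figure D2:**
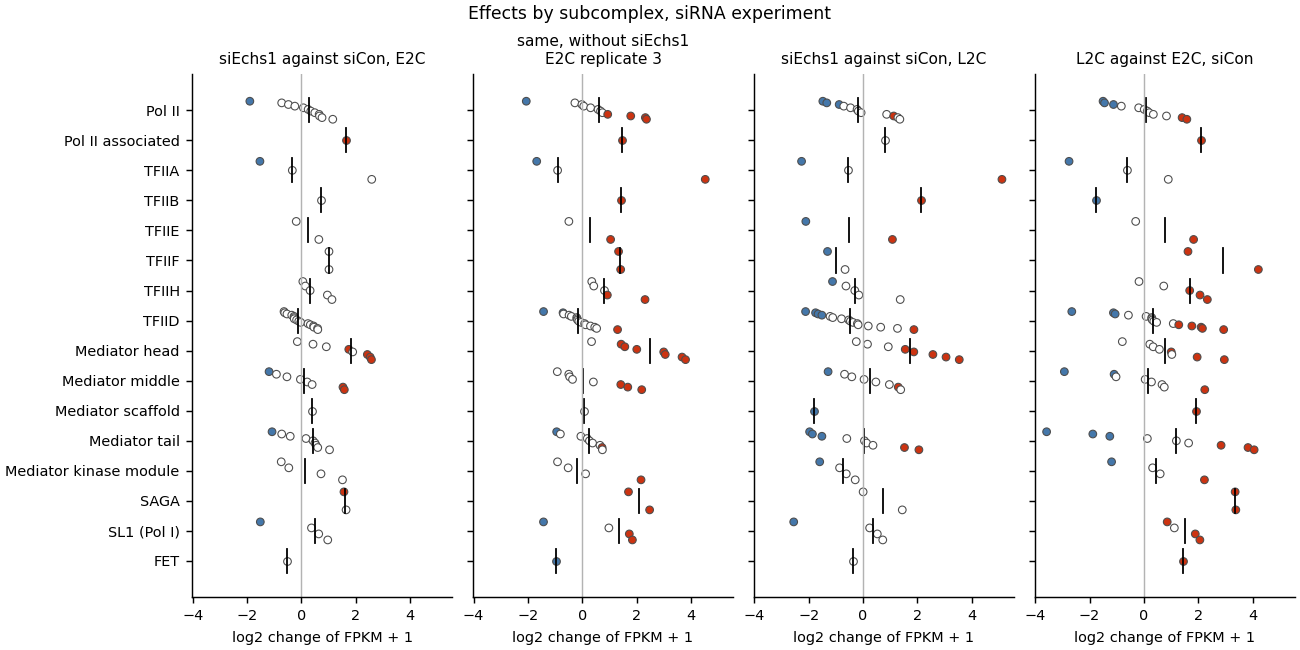
Log2 change of FPKM + 1 of each member, by subcomplex, for siEchs1 against siCon at E2C, the same without siEchs1 E2C replicate 3, siEchs1 against siCon at L2C, and L2C against E2C in siCon. Red and blue points passed the test as higher or lower, white points did not, and black bars are medians. The Mediator head median is 1.81, 2.50 and 1.71 in the first 3 panels.

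The siRNA effects at the 2 stages were compared by the difference of the effects, L2C minus E2C. It was above 0 for 3 members and below 0 for 10 at the threshold, beside 17.2% of all genes (5.65% and 11.6%). The head held 0 of these 13, and its median difference was 0.06. At an unadjusted p under 0.05, 1 head subunit passed in the limma fit, beside 33.7% of all genes. The widest was Taf4b at -2.56 ± 0.41 (adjusted p = 0.0039): it stood at 6.31 to 7.79 FPKM in siCon E2C and 8.65 to 11.5 FPKM in siEchs1 E2C, but at 28.2 to 38.9 FPKM in siCon L2C and 5.43 to 8.95 FPKM in siEchs1 L2C. Gtf2f1 had a difference of -2.32 ± 0.52, Med14 of -2.20 ± 0.50, Med16 of -2.03 ± 0.45, Med24 of -2.06 ± 0.48 and Gtf2e1 of -1.92 ± 0.46 (adjusted p = 0.013, 0.015, 0.012, 0.016 and 0.017). Of the 8 members higher at E2C and the 13 higher at L2C, 5 were on both lists, the head subunits Med8, Med17, Med19 and Med22 and the middle subunit Med26. Of the 5 and 18 that were lower, Polr2f and Taf1d were on both. How many of all genes were on both lists was not counted, and the comparisons at E2C and L2C share an estimate of spread. Without siEchs1 E2C replicate 3 the counts for the difference were 4 and 19, beside 7.46% and 16% of all genes, and without replicate 1 of that group 6 and 14, beside 8.75% and 14.7%.

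The passage from E2C to L2C in siCon embryos gives the frame for these effects. Of the 79 members, 29 rose and 14 fell from E2C to L2C, beside 50.2% of all genes tested (35.8% rose and 14.4% fell). The median change was 0.60 for the members and 0.51 for all genes. Quantile normalization moved the median of all genes to -0.01 and the member counts to 25 and 13, beside 23.7% of all genes rising and 24% falling. Rescaling without mitochondrial and ribosomal RNA moved them to 0.77 and to 35 and 9, beside 40.4% and 10.2%. The mitochondrial share was lower in each siCon L2C library than in each siCon E2C library, and its part was not tested. Without siEchs1 E2C replicate 3, 39 members rose and 16 fell, beside 41.3% and 18.7% of all genes.

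Several subunits were scarce early and abundant late. Gtf2f1, the large subunit of TFIIF, stood at 12.5, 14.9 and 8.76 FPKM in siCon E2C and at 222, 268 and 221 FPKM in siCon L2C. The tail subunit Med25, which binds activators, went from 3.64 to 6.45 FPKM to 63.9 to 116.7 FPKM, and Med16 from 0.22 to 0.56 FPKM to 16.3 to 21.4 FPKM. These groups did not overlap, which was a condition for naming these members. Gtf2f1 rose by 4.21 ± 0.37, Med25 by 4.06 ± 0.42 and Med16 by 3.83 ± 0.32 (adjusted p = 6.5e-06, 1.5e-05 and 4.9e-06). Both SAGA members rose, Taf6l by 3.38 ± 0.61 and Taf5l by 3.36 ± 0.33. In the kinase module Med12 rose by 2.23 ± 0.59, from 0.28 to 1.9 FPKM to 3.39 to 10.4 FPKM (adjusted p = 0.0075). TFIIH had 3 of 5 members rising, Gtf2h4, Gtf2h3 and Gtf2h1. In TFIID 5 of 16 rose and 3 fell, Taf9b at -2.66, Taf5 at -1.12 and Taf12 at -1.06, the last 2 not called when rescaled (adjusted p = 0.062 and 0.050). Those that rose were led by Taf10 at 2.93 ± 0.53, which shares 45.9% of its exon length with Ilk, and included Taf4b at 2.15 ± 0.29 and Taf6 at 2.10 ± 0.31. Polr2a rose by 1.58 ± 0.34 (adjusted p = 0.0020).

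A smaller set declined over the same interval. Med30 stood at 560, 378 and 566 FPKM in siCon E2C and at 56.8, 48.4 and 23.6 FPKM in siCon L2C. Med21 went from 828 to 1116 FPKM to 73.5 to 195.7 FPKM, and Gtf2a2 from 652 to 817 FPKM to 73.6 to 134.8 FPKM. No library of one stage reached the range of the other for these genes, as the rule for naming members required. Med30 changed by -3.58 ± 0.43, Med21 by -2.93 ± 0.39, Gtf2a2 by -2.76 ± 0.34 and Taf9b by -2.66 ± 0.39 (adjusted p = 3.9e-05, 7.6e-05, 4.9e-05 and 0.00015). Gtf2b changed by -1.75 ± 0.51 and Med28 by -1.26 ± 0.28 (adjusted p = 0.012 and 0.0025). Taf9b, Med30, Med28 and Gtf2b were each higher in siEchs1 L2C than in siCon L2C, but the 2 comparisons share the siCon L2C libraries.

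Paralog pairs showed which copy held the larger share of the pair's FPKM. Gtf2a1l made up 6.52% to 12.7% of Gtf2a1l plus Gtf2a1 in siCon E2C and 2.21% to 4.7% in siCon L2C. In siEchs1 it made up 85.6%, 84.1% and, in replicate 3, 2.07% at E2C, and 85.5% to 92.6% at L2C. Taf9b made up 71.6% to 80.6% of its pair with Taf9 in siCon E2C, 21.3% to 42.0% in siCon L2C and 68.4% to 76.1% in siEchs1 L2C, and Taf9 shares 73.8% of its exon length on the same strand with Ak6, so its reads cannot be fully assigned. Taf4b made up 32.5% to 41.5% of its pair with Taf4 in siCon E2C and 57.5% to 76.2% in siCon L2C, and both members of that pair fell in siEchs1 L2C. In the kinase module Med13l made up 11.9% to 20.3% of its pair with Med13 in siCon E2C. The late groups gave 31.9% to 51.6% with siCon and 53.3% to 65.3% with siEchs1. Taf7l stayed under 10% of its pair with Taf7 in every library, at most 9.67% in siCon L2C.

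**Figure D3:**
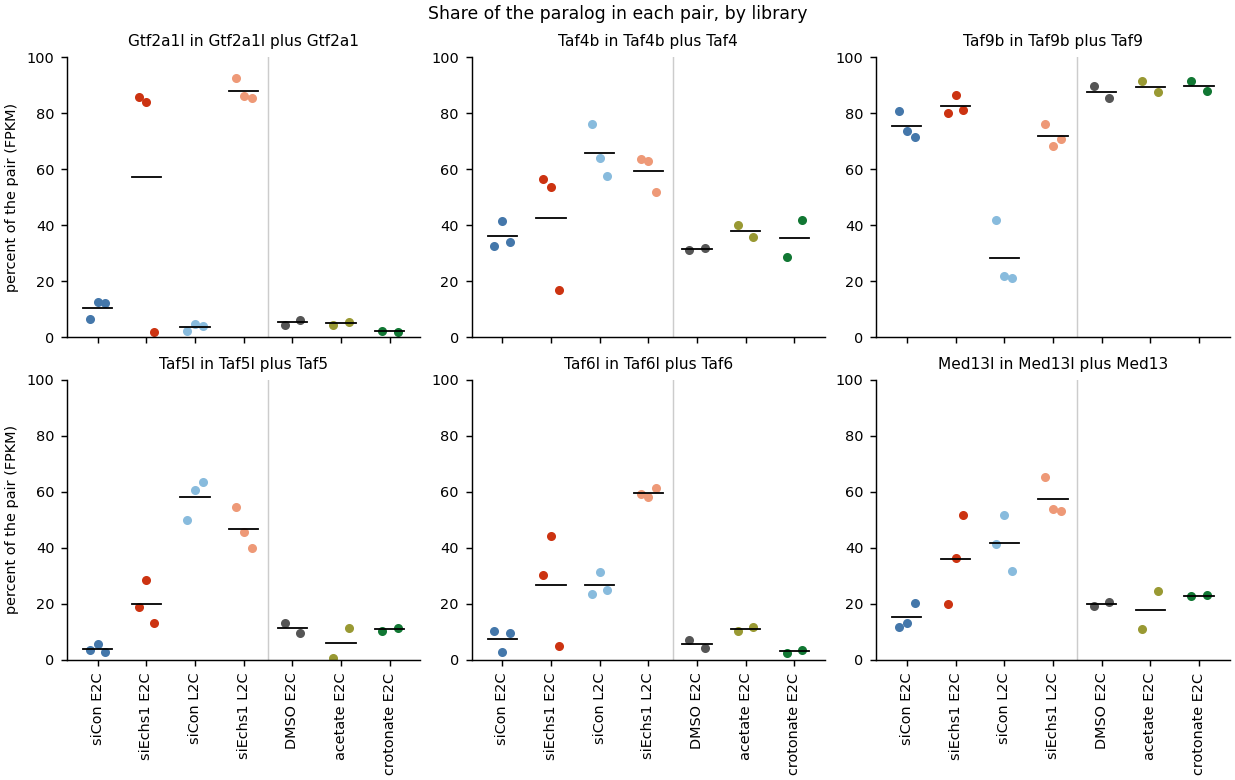
Share of the first-named paralog in the summed FPKM of 6 paralog pairs, in percent, for each library by group. Points are libraries and black lines are group means. Gtf2a1l is above 84% in 5 siEchs1 libraries and at most 12.7% in every other library.

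The treatment experiment compares a source of crotonate, and acetate as a short acid without the crotonyl double bond, with DMSO. Doses are not in the labels. Under crotonate most members lay below DMSO: 60 of the 77 members tested had a log2 change below 0 and 17 above. Their median was -0.33, beside -0.15 for all genes. With that median most genes tested also lay below DMSO, but their share below 0 was not counted. At the adjusted threshold only Taf1b of SL1 passed, 1 member lower and 0 higher, beside 0.529% of the 13789 genes tested (0.319% lower and 0.21% higher). At an unadjusted p under 0.05 the limma fit had 19 lower and 0 higher, beside 16.3% of all genes in either direction. The split of all genes by direction at that level was not counted. Taf1c and Taf7l were below the filter. Taf1b stood at 34.6 and 40.6 FPKM in DMSO, 4.94 and 4.38 FPKM in crotonate and 11.4 and 26.0 FPKM in acetate. It changed by -2.77 ± 0.42 against DMSO (n = 2 and 2, limma adjusted p = 0.043), and the call ended when any DMSO or crotonate library was left out.

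How many members passed depended on the acetate libraries, although they are in neither group. They correlated at 0.85 over all genes, the lowest of any pair in that experiment, and replicate 1 held 20.6% mitochondrial RNA against 11.9% in replicate 2. That share was 13.4% and 12.2% in DMSO and 19.8% and 16.7% in crotonate, and its part was not tested. With the acetate libraries left out of the fit, 16 of the 76 members tested fell under crotonate and 0 rose, beside 9.34% of the 12942 genes tested (6.82% fell and 2.53% rose). Without acetate replicate 1 the same 16 fell, beside 8.89% of all genes called (6.61% fell and 2.28% rose), and without acetate replicate 2, 15 fell and 0 rose, beside 6% and 2.06% of all genes. With either DMSO or crotonate library left out, 0 members passed. These 16 genes, named after their values were seen, were Taf1b, Taf1a, Gtf2b, Gtf2f2, Gtf2h1, Polr2k, Taf3, Taf7, Taf8, Med7, Med23 and the head subunits Med6, Med8, Med17, Med19 and Med20.

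Of the 16, 3 head subunits are given with their values. Med8 stood at 10.2 and 9.89 FPKM in DMSO and at 2.26 and 0.96 FPKM in crotonate, with acetate at 3.87 and 6.01 FPKM. For Med17, DMSO gave 7.4 and 11.4 FPKM, crotonate 1.46 and 2.62 FPKM and acetate 2.38 and 17.5 FPKM. Med6, which reaches toward the polymerase, was at 101.5 and 127.4 FPKM in DMSO, 42.4 and 30.4 FPKM in crotonate and 114.1 and 102.9 FPKM in acetate. Both crotonate libraries lay below both DMSO libraries for the 3 genes. The acetate libraries also lay below both DMSO libraries for Med8, with DMSO for Med6 and on both sides for Med17. With all 6 libraries the differences from DMSO were -2.13 ± 0.40, -1.77 ± 0.73 and -1.63 ± 0.30 (adjusted p = 0.067, 0.28 and 0.062), and with the acetate libraries left out the adjusted p were 0.026, 0.037 and 0.024. The median over the 8 head subunits was -1.30 under crotonate, with 7 below 0 and 1 above. Under acetate 8 of the 8 lay below 0, from -0.03 (Med18) to -1.71 (Med20), without passing the adjusted test. The medians of all genes tested were also below 0, at -0.15 under crotonate and -0.08 under acetate. Their shares below 0 were not counted. Gtf2b, at 292 and 379 FPKM in DMSO and 132 and 118 FPKM in crotonate, had a difference of -1.41 ± 0.28 (adjusted p = 0.071).

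Acetate against DMSO gave 0 members past the limma threshold in either direction, beside 0.0653% of all genes (0.00725% higher and 0.058% lower). At an unadjusted p under 0.05 there were 1 higher and 2 lower, beside 5.96% of all genes. The member median was -0.04 and that of all genes -0.08. Without acetate replicate 2, 2 members passed as higher and 8 as lower, beside 1.28% and 5.53% of all genes. Crotonate and acetate, compared directly, differed in 2 members, both lower under crotonate, beside 1.86% of all genes (0.841% lower and 1.02% higher). Gtf2b, at 535 and 429 FPKM in acetate, differed by -1.93 ± 0.28 and Med6 by -1.57 ± 0.30 (adjusted p = 0.031 and 0.049). The counts were 8 lower and 0 higher without acetate replicate 1 (6.38% of all genes called, 3.98% lower and 2.4% higher), 11 lower and 4 higher without acetate replicate 2 (5.58% lower and 5.52% higher of all genes) and 0 when a DMSO or crotonate library was left out. The 3 treatment comparisons share libraries. The oocyte list summed to 1686 and 2016 FPKM in DMSO, 1321 and 1089 FPKM in crotonate and 1378 and 2184 FPKM in acetate, and its part in these values was not tested. The blood genes summed to 4.83 and 3.81 FPKM in DMSO, 13.8 and 9.36 FPKM in crotonate and 4.72 and 2.67 FPKM in acetate. The oviduct genes summed to 3.66 and 1.95 FPKM in DMSO, 7.59 and 8.53 FPKM in crotonate and 4.17 and 4 FPKM in acetate, so both lists were higher in each crotonate library, and their part was not tested either.

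**Figure D4:**
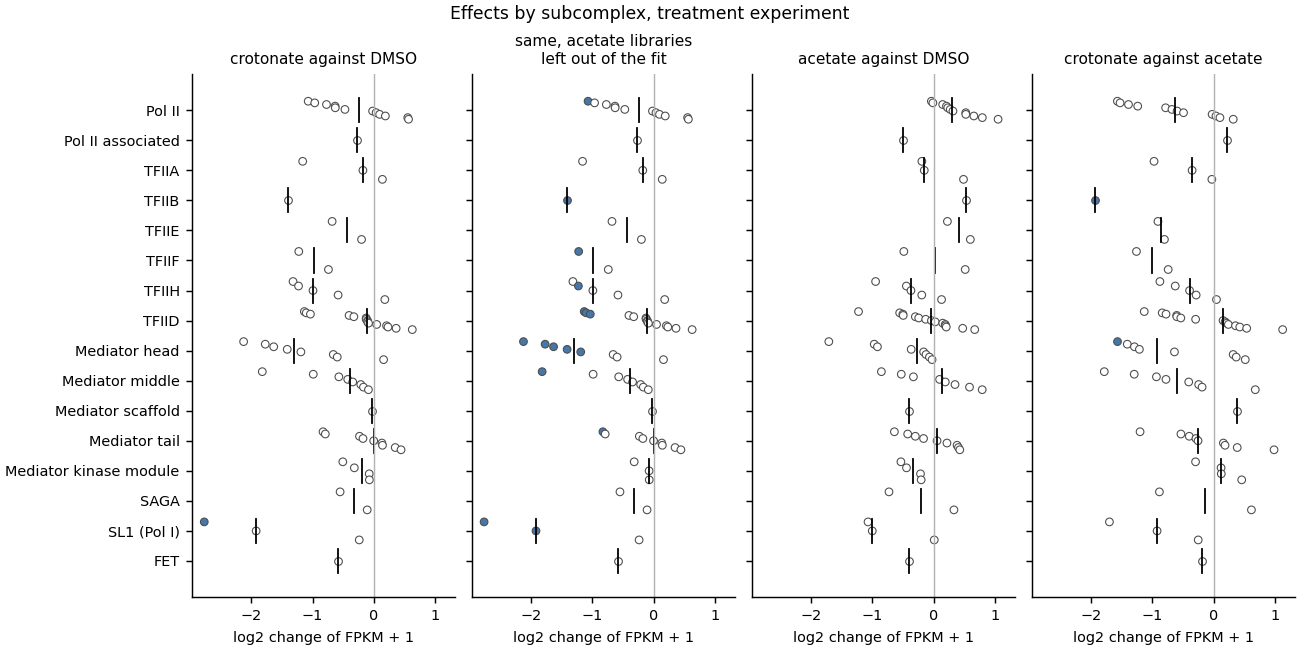
Log2 change of FPKM + 1 of each member, by subcomplex, for crotonate against DMSO, the same with the acetate libraries left out of the fit, acetate against DMSO, and crotonate against acetate. Blue points passed the test as lower, no point passed as higher, white points did not pass, and black bars are medians. The head median is -1.30 in the first 2 panels.

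The 2 experiments share no library, and the values below are for genes chosen after their values were seen. The log2 difference of Med17 was 2.58 at E2C and 3.54 at L2C under siEchs1 and -1.77 under crotonate. In the same order it was 2.53, 3.05 and -2.13 for Med8 and 1.74, 1.55 and -1.41 for Med19. The other head subunits did not all follow this order: Med6 gave -0.15, 0.16 and -1.63 and Med11 0.43, -0.25 and 0.16. Of the 3 crotonate values of Med17, Med8 and Med19, 0 passed the limma test with all libraries. It was 0.71, 2.12 and -1.41 for Gtf2b and 2.59, 5.11 and -1.16 for Gtf2a1l (crotonate adjusted p = 0.071 and 0.17), and the E2C values of both did not pass. No test of a difference across the experiments was made.

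Genes that work beside the members were followed by lists chosen for their roles. Their counts stand beside 35.8% of all genes rising and 14.4% falling from E2C to L2C in siCon, and 21.9% rising and 26.9% falling in siEchs1 L2C. The 2 comparisons share the siCon L2C libraries, so a rise in the first and a fall in the second are not independent. Of 31 pausing and elongation factors, 19 rose and 0 fell from E2C to L2C in siCon, and 2 rose and 13 fell in siEchs1 L2C against siCon L2C. Cdk9, the kinase that releases paused polymerase, stood at 194, 246 and 310 FPKM in siCon L2C and at 58.8, 31.4 and 19.5 FPKM in siEchs1 L2C, a change of -2.85 (adjusted p = 0.00026), and its inhibitor Hexim1 changed by -3.56 (adjusted p = 0.00026). Tcea3, a member of the TFIIS family of elongation factors, rose by 4.08 (adjusted p = 7.4e-05). Of 14 Integrator subunits 11 rose and 0 fell with stage, and 2 rose and 3 fell in siEchs1 L2C. Among 11 assembly factors and C-terminal domain phosphatases 8 rose and 0 fell with stage, and 1 rose and 5 fell in siEchs1 L2C, with Gpn3, which helps import the polymerase, at -2.99 (adjusted p = 0.00018). The 5 TFIIH helicase and kinase genes held 1 that rose in siEchs1 L2C, Mnat1 at 1.52 (adjusted p = 0.034). Of 8 RNA polymerase I subunits 4 fell and 0 rose in siEchs1 L2C, and of 11 RNA polymerase III subunits 6 fell and 0 rose. Both lists also held subunits that rose with stage in siCon, among them Polr1b (3.27) and Polr3e (3.64). Others, such as Polr1d (0.21) and Polr3gl (-0.16), did not pass, so a rise with stage was not particular to the lists around RNA polymerase II.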

How the data were processed

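RNA of 18 tubes of mouse embryos was read in pairs of 150 nt (labels' protocols). The submitters' processing notes name cutadapt 1.16, STAR and mm10. Values were deposited as FPKM, scaled by library and gene length, without counts, so depth is unknown. An FPKM program or annotation is not given in the sources used here. Groups came from the titles. Titles and headers disagree on replicates 2 and 3 of siEchs1 L2C, and the titles were used. Genes with repeated symbols (212) or symbols turned into dates (27) were left out. Members and lists were chosen with earlier results of these data known. Genes at 1 FPKM or more in at least 3 siRNA or 2 treatment libraries were tested as log2(FPKM + 1) with limma 3.58.1 (R 4.3.3; trend, robust, group means, each experiment fitted apart, two-sided), Benjamini-Hochberg adjusted over all genes and called at 0.05; the step was tested on simulated data. Named members were Polr2a, Polr2b and other fixed genes and, per subcomplex and direction, up to 3 called members with the widest change, no overlap between groups and a mean of at least 5 FPKM; others were named after their values were seen. Coordinates and exon overlaps are from GENCODE M21 (mm10) and promoters from RefSeq. Alternatives were scaling, pseudocount, filter, trend, replicate block, compared groups alone and leaving out each library.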

Additional observations from a re-analysis of the deposited data

Results flagged for a closer look

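The siRNA effect differed between the stages, by the test of the difference itself, for 13 of the 79 members. Of the 17652 genes tested 17.2% were called (5.65% above 0 and 11.6% below), so the count of members was not above that share. Values are the log2 change at L2C minus that at E2C. It was negative for Taf4b (-2.56), Taf1 (-2.35), Gtf2f1 (-2.32), Med14 (-2.20), Med24 (-2.06), Med16 (-2.03), Gtf2e1 (-1.92), Taf5l (-1.56), Polr2a (-1.55) and Gtf2h1 (-1.45), so these stood lower against control at L2C than at E2C. It was positive for Med30 (2.47), Taf9b (1.90) and Med27 (1.45). For Taf4b, Gtf2f1, Med14, Med16, Med24 and Gtf2e1 the difference passed under each of the 20 other settings. Polr2a, Gtf2h1, Taf5l, Taf1 and Taf9b lost the call under 13, 12, 11, 10 and 10 of the 20, Med27 under 5 and Med30 under 2. Groups of 2 or 3 libraries were not tested for outlying values.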

How the results depend on the processing

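With 2 or 3 tubes per group, unknown depth and values near 0 for some subunits, the precision is limited. No named member's call changed sign. In siEchs1 E2C the 13 calls became 8 with the compared groups alone, and leaving out a library gave 8 to 36. For the difference of the siRNA effects the 13 calls became 8 with no filter and 6 to 23 with a library left out. Against siCon at L2C the 31 calls ranged from 25 to 45 with a library left out, and for stage the 43 from 37 to 55. Crotonate against DMSO, with 1 call, gave 0 when rescaled, with a pseudocount of 0.1, no filter or no trend, 16 with compared groups alone and 0 to 16 with a library left out. Acetate against DMSO gave 0 to 10 with a library left out. Crotonate against acetate, with 2 calls, gave 1 with quantile normalization, rescaling, a pseudocount of 0.1, no trend or the replicate block, 0 with no filter or with compared groups alone, and 0 to 15 with a library left out. The cause was not tested. A treatment group left with 1 library is assumed to vary like the others. The labels do not say what a replicate number stands for. Deviations of libraries with the same number correlated at -0.10 to 0.16, which cannot exclude pairing. With the replicate block the calls were 12 at E2C, 29 at L2C, 10 for the difference and 42 for stage. They were 1 for crotonate against DMSO and 0 for acetate against DMSO. With the numbers of the file headers, chosen after seeing the data, the block gave 12, 30, 10 and 43 for the first 4.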
